A study of Mus musculus with 12 samples.

Results

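The genes described here are the potassium, sodium and pacemaker channel genes expressed in mouse cardiomyocytes. They are the protein-coding genes of a GRCm38 annotation whose symbols start with Kcn or Hcn, or with Scn and a digit, and whose mean CPM (the count divided by the library total, times 1000000) was at least 0.3 over 11 libraries. The rule kept 51 of 112 annotated genes of these families, out of 55335 gene identifiers in each file. The rule used the mean level, so the levels below are a description and carry no test. It kept 10 of 10 sodium channel alpha subunits, 2 of 4 beta subunits, 12 of 27 voltage-gated potassium channel alpha subunits, 4 of 12 accessory potassium channel subunits, 6 of 13 Kcnh and Kcnq genes, 7 of 15 inward rectifiers (Kcnj), 2 of 14 Kcnk channels, 5 of 12 calcium- or sodium-activated channels and 3 of 4 Hcn genes. Just inside the threshold lay Kcnip1 at 0.303 CPM, Kcnn3 at 0.302 and Kcnb2 at 0.302, and just outside lay Kcna1 at 0.298 and Kcnh1 at 0.280.

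Cardiomyocyte RNA of male mice, 7 to 8 weeks old when the diets began, was sequenced in 12 libraries that the labels put into 4 groups of 3. WT_CD denotes C57BL/6J mice on standard chow and WT_HFD the same strain on a Western diet rich in fat and cholesterol. ApoeKO_CD and ApoeKO_HFD denote ApoE KO mice (B6.129P2-Apoe tm1Unc/J), which carry a germline knockout allele of the apolipoprotein E gene, on the same 2 diets. All groups were sampled at 7 weeks of diet, and the series, by its title, concerns metabolic stress and diastolic heart failure.

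Voltage-gated sodium channels carry the fast inward current that starts the cardiac action potential. Potassium channels end it: in the mouse ventricle the transient outward current, formed by Kcnd subunits with the accessory protein Kcnip2, does most of the early repolarization, while inward rectifiers hold the resting potential. Hcn channels open on hyperpolarization and carry the pacemaker current of the sinus node.

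The 11 libraries used held 22130323 to 46424614 counts on genes, of which 51.5% to 71.3% were mitochondrial, so at least 9340449 counts fell on nuclear genes. WT_HFD replicate 3 was left out: it had 1347110 counts, 76.7% of its counts on 1303 overlapping pairs of a coding and a non-coding gene lay on the non-coding one (0.687% to 1.23% in the other libraries), and its column carried the same header as that of ApoeKO_CD replicate 1. WT_HFD therefore has n = 2 and each other group n = 3. Apoe itself had 2.12 to 3.61 scaled CPM in the libraries labelled WT_CD and 6.93 to 25.3 in those labelled ApoeKO_CD, against the genotype labels on chow, while on the high fat diet it had 8.44 to 18.9 in the libraries labelled WT_HFD and 1.94 to 3.16 in those labelled ApoeKO_HFD. Groups are written here as labelled, and every direction drawn between genotypes holds for libraries so labelled. General cardiomyocyte markers were abundant in every library, with summed levels of 86688 to 100360 scaled CPM over 10 genes. The 3 WT_CD libraries stood apart from the others: their sample weights in a voom fit were 0.372 to 0.676, against 0.743 to 2.13 for the other 8, and they held the lowest value of 53.2% and the highest of 48.3% of all 16932 genes tested.

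In the fit reported below, the edgeR quasi-likelihood test on all genes with Benjamini-Hochberg adjustment, 0 of the 51 channel genes passed an adjusted p of 0.05 in any comparison. Under at least 1 other setting 5 well-expressed genes did pass, and they carry most of what follows: Kcnip2 and Kcnd2, which together form the fast transient outward channel; Kcnj3, a subunit of the acetylcholine-activated inward rectifier; Scn4b, a sodium channel beta subunit; and Scn4a, the skeletal muscle sodium channel alpha subunit. The calls of these 5 genes came from DESeq2, the fit without a filter on low counts, or the fit without WT_CD replicate 2. In the comparisons concerned, these settings called 0.335% to 10.8% of all genes and 1.96% to 5.88% of the channel genes. For the 3 potassium channel genes among these 5, the 250 bases before the transcription start site are shown. The differences described below for repolarizing channels are mainly theirs. The windows touch no annotated exon of their own gene, but that of Kcnj3 touches an exon of Gm26794, a lincRNA on the other strand. The sequences are from RefSeq on GRCm38.p6, read 5′ to 3′ on the strand of the gene, and capitals mark GGGCGG, the GC box bound by Sp and KLF factors, searched on both strands.
Kcnip2 (chr19:45816064-45816313, minus strand): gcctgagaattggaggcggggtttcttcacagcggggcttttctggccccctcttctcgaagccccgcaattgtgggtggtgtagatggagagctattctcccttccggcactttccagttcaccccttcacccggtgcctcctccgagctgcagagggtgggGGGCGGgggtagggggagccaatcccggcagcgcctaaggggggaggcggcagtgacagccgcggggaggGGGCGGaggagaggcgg
Kcnd2 (chr6:21215096-21215345, plus strand): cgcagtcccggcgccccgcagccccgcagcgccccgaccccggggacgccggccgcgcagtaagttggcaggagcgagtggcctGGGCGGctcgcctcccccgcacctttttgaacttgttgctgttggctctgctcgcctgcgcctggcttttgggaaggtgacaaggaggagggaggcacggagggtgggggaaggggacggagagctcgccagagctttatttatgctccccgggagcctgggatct
Kcnj3 (chr2:55435720-55435969, plus strand): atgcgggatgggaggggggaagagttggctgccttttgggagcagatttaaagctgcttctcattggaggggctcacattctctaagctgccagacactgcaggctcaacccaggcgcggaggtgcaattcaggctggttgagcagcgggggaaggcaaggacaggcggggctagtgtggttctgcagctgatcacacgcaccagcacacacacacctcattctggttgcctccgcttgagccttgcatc
Kcnip2 held 2 GC boxes, Kcnd2 1 and Kcnj3 0. Over the 33 of 51 channel genes with a sequence in the RefSeq table, 12 held GGGCGG in this window (36.4%), against 32.9% of all 27025 windows of the same length. The E-box CACGTG was present in the windows of Kcnj2 and Kcnab1 (6.06%, against 6.05% of all windows). TATAAA was present in 0 of 33 windows, against 13.0% of all windows. These are matches of letters within 250 bases and no measure of binding. For channel genes the window nearest the annotated gene start was taken, and for all genes the first listed. The shares therefore come from windows picked by unlike rules.

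A few genes made up most of the channel transcripts. Kcnk3, a leak channel that carries background current, took 15.7% of the summed CPM of the 51 genes, and Kcng2, a silent subunit that modifies other voltage-gated potassium channels, 5.84%. The 10 most abundant genes took 80.6%. A mean of at least 4 CPM was reached by 21 genes, with 97 to 15181 counts per library and a median coefficient of variation of 14.4% over the 11 libraries. Another 10 lay at 1 to 4 CPM with 6 to 176 counts and a median coefficient of variation of 31.7%, and 20 lay under 1 CPM with 0 to 65 counts and a median of 47.0%, so the lower genes were measured far less precisely.

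**Figure D1:**
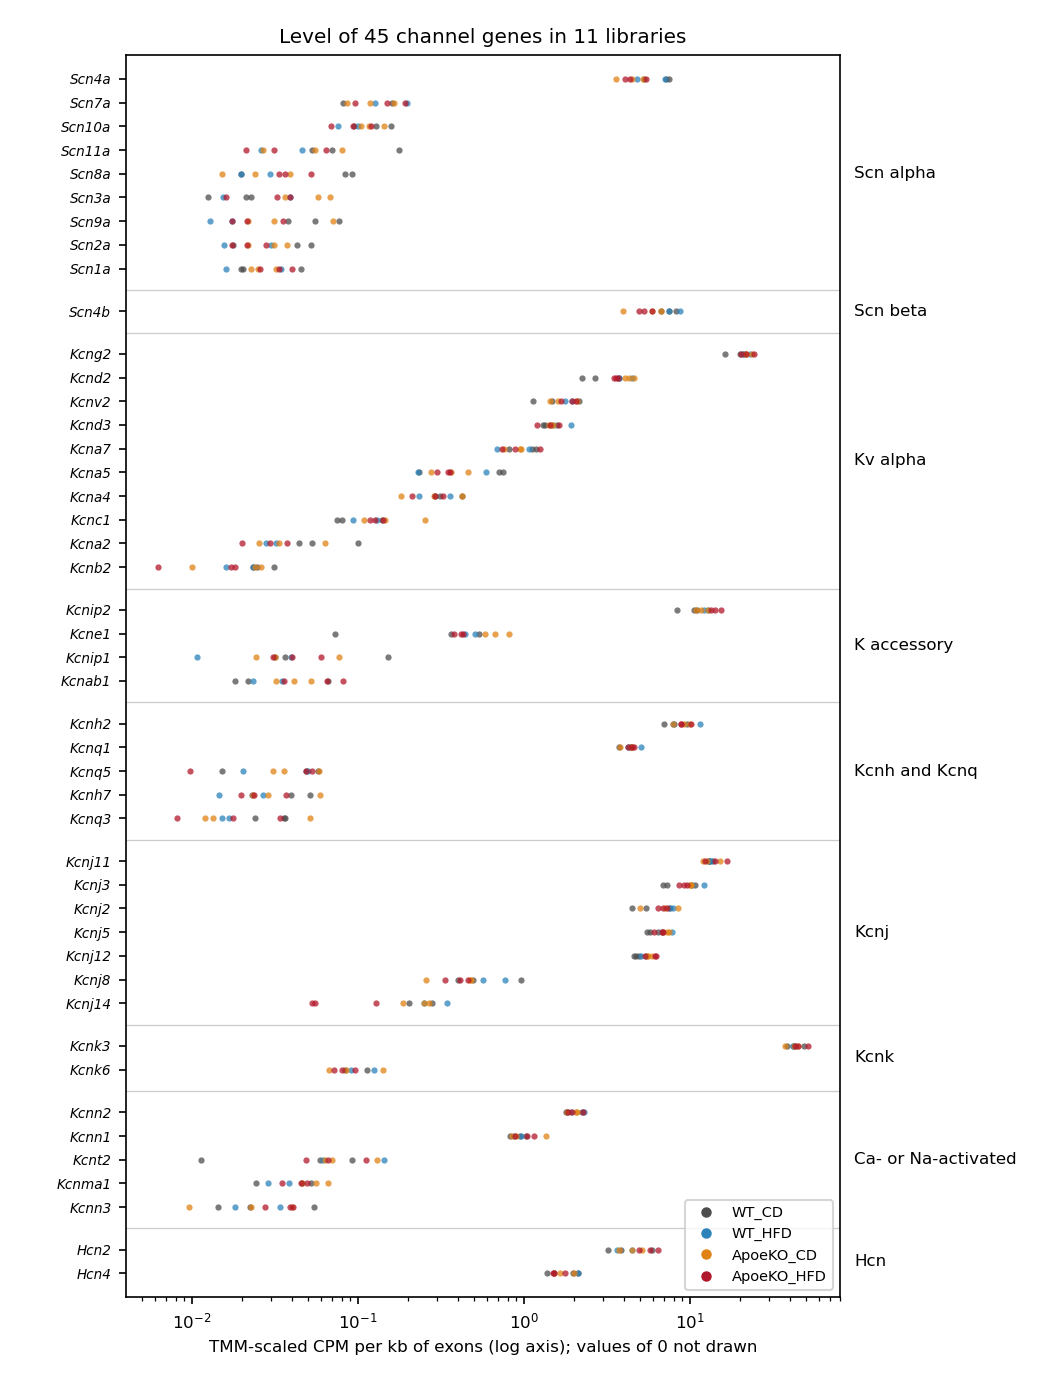
Level of 45 channel genes in 11 libraries, as TMM-scaled CPM per kb of exons on a log axis, grouped by family and coloured by group; each point is 1 library. Kcnk3 and Kcng2 lie near the top, with medians of 42.7 and 21.7 per kb, and the points of the lower genes spread more widely.

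Compared per length of exon, in scaled CPM per kb as plotted by family, the sodium channel alpha subunits differed widely in level. Scn4a, the skeletal muscle form, had a median of 5.22 per kb over 11 libraries. The 8 alpha subunits of low level, which are best known from neurons and glia, had medians of 0.0258 (Scn1a) to 0.127 (Scn7a), with Scn10a, linked to cardiac conduction in genetic studies, at 0.105. Of the beta subunits, which adjust gating and membrane delivery of the alpha subunits, Scn4b had 6.67 per kb. Scn2b and Scn3b had mean levels of 0.0919 and 0.141 CPM and were not kept.

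Among the voltage-gated potassium channel alpha subunits, Kcng2 had a median of 21.7 per kb and Kcnd2 3.73. Kcnd3, the other transient outward subunit, had 1.46 and Kcnv2, another silent subunit, 1.76. Kcna5 and Kcna4, which carry an ultrarapid delayed rectifier and a slow transient outward current, had 0.359 and 0.292 per kb. The accessory subunit Kcnip2 had 12.2 per kb, above Kcnd2 and Kcnd3 in every library, while Kcne1, the partner of Kcnq1 in the slow delayed rectifier, had 0.443. Kcnh2, the channel of the rapid delayed rectifier, had 8.86 and Kcnq1 4.39.

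The 7 inward rectifiers fell into 5 of higher and 2 of much lower level. Kcnj11, the pore of the ATP-sensitive potassium channel, had a median of 13.1 per kb, Kcnj3 9.94, Kcnj2 7.04, Kcnj5 6.79 and Kcnj12 5.47. Kcnj2 and Kcnj12 form the classical inward rectifier of the ventricle, and Kcnj3 and Kcnj5 the acetylcholine-activated channel best known from atrium and sinus node. Within each of the 11 libraries Kcnj11 exceeded Kcnj3, and Kcnj3 exceeded Kcnj2 and Kcnj5. The lower neighbours were less clearly ordered: Kcnj2 was above Kcnj5 in 7 of 11 libraries and above Kcnj12 in 9, and Kcnj5 was above Kcnj12 in 10, while their ranges over libraries (4.5 to 8.53 for Kcnj2, 5.54 to 7.84 for Kcnj5 and 4.61 to 6.28 for Kcnj12) overlapped. Kcnj8, the ATP-sensitive subunit of vascular cells, had 0.475 and Kcnj14 0.202. Among the other families Kcnk3 had a median of 42.7 per kb and a range of 37.5 to 51.1. The small-conductance calcium-activated channel Kcnn2 had 1.95 and Kcnn3 0.0275. Of the pacemaker channels, Hcn2 had 4.47 and Hcn4, the main sinus node form, 1.65.

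The main comparison sets ApoeKO_HFD, by its label the combined model, against WT_CD, by its label the plain control. Apoe was low in both groups, at 1.94 to 3.16 scaled CPM in ApoeKO_HFD and 2.12 to 3.61 in WT_CD. No channel gene passed the test: 0 of 51 had an adjusted p under 0.05, against 0.154% of all 16932 genes tested (26 genes). At an unadjusted p under 0.05 there were 7 of 51 (13.7%), against 14.2% of all genes. By family the 7 were 3 of 10 sodium channel alpha subunits, 1 of 2 beta subunits, 1 of 12 voltage-gated alpha subunits, 1 of 4 accessory subunits and 1 of 7 inward rectifiers. DESeq2 called 1 channel gene (1.96%, against 1.26% of all genes) with 8 at an unadjusted p under 0.05 (15.7%, against 14.4%), and voom with sample weights called 0 (against 0.195% of all genes) with 7 unadjusted (13.7%, against 12.2%). For 6 of 51 (11.8%) the 2 groups did not overlap, against 15.6% of all genes. The median log2 fold change was 0.09 over the 51 genes and −0.01 over all genes tested. No label ties a replicate to an animal, so every p-value here reflects library-to-library spread, which may be technical.

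Kcnip2 (ENSMUSG00000025221, chr19:45791839-45816061, minus strand, GRCm38), the accessory subunit that brings Kcnd channels to the membrane, had scaled CPM of 36.9, 38.2 and 28.9 in the WT_CD libraries, 44.5 and 42.5 in WT_HFD, 37.8, 40.5 and 44.6 in ApoeKO_CD and 53.4, 49.1 and 46.6 in ApoeKO_HFD. The 3 ApoeKO_HFD libraries were the highest of all 11 and WT_CD replicates 3 and 1 the lowest, with no overlap between these groups. The group means were 34.7 ± 5.0 (SD, n = 3) in WT_CD and 49.7 ± 3.46 (n = 3) in ApoeKO_HFD. The fitted log2 fold change was 0.52 (SE 0.13, 95% interval 0.24 to 0.80), with an edgeR p of 0.000951 and an adjusted p of 0.118. DESeq2 gave an adjusted p of 0.0235. Without WT_CD replicate 2 the edgeR value was 0.59, with an adjusted p of 0.0149, and over all alternatives the adjusted p ran from 0.0149 to 0.9995. Kcnd2, the pore subunit that Kcnip2 binds, had a log2 fold change of 0.32 (SE 0.16, edgeR adjusted p 0.374). That value was 0.55 without WT_CD replicate 2 (adjusted p 0.0231) and 0.16 without WT_CD replicate 3 (adjusted p 0.727), with adjusted p-values of 0.0231 to 0.9995 over all alternatives. Leaving out replicate 2 gave calls for 7.79% of all genes in this comparison and 3.92% (2) of the channel genes.

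Scn4b (ENSMUSG00000046480, chr9:45138395-45154152, plus strand, GRCm38) had scaled CPM of 37.3, 41.3 and 33.2 in WT_CD, 43.1 and 37.0 in WT_HFD, 19.8, 29.4 and 33.3 in ApoeKO_CD and 24.5, 26.3 and 29.6 in ApoeKO_HFD. Of the 6 libraries labelled ApoeKO, 5 lay below all 5 labelled WT, and ApoeKO_CD replicate 3, at 33.3, was level with the lowest WT library, WT_CD replicate 3. For ApoeKO_HFD against WT_CD the log2 fold change was −0.48 (SE 0.16, edgeR adjusted p 0.228), with no overlap between the groups.

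Scn4a (ENSMUSG00000001027, chr11:106318592-106353288, minus strand, GRCm38) had scaled CPM of 37.1, 52.8 and 50.2 in WT_CD, 49.6 and 33.8 in WT_HFD, 25.4, 31.5 and 36.7 in ApoeKO_CD and 30.9, 28.8 and 38.4 in ApoeKO_HFD. The ApoeKO_HFD and WT_CD groups overlapped at 1 library each, since ApoeKO_HFD replicate 3 exceeded WT_CD replicate 1. The log2 fold change was −0.51 (SE 0.18, edgeR adjusted p 0.235), and −0.31 (adjusted p 0.702) with an atrial covariate, the mean log2 level of the atrial markers described below, in the fit. Kcnj12 had 13.7, 13.0 and 12.7 in WT_CD and 17.3, 16.8 and 14.8 in ApoeKO_HFD, a log2 fold change of 0.31 (SE 0.12, edgeR adjusted p 0.273) with no overlap. Kcna2, a low-level delayed rectifier subunit with 10 to 38 counts per library, had a log2 fold change of −1.21 (SE 0.50, edgeR adjusted p 0.290), and −0.76 (adjusted p 0.516) without WT_CD replicate 1, which had the 38 counts.

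**Figure D2:**
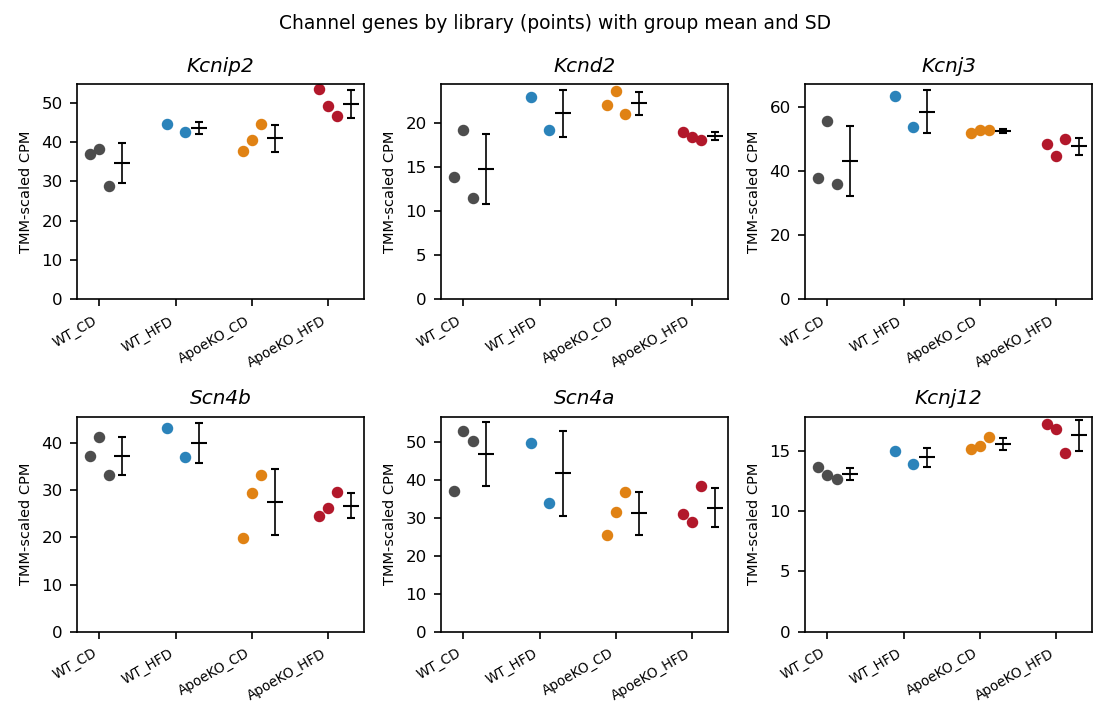
TMM-scaled CPM of 6 channel genes, 1 point per library in each group, with the group mean and SD as bars; axes start at 0. Kcnip2 runs from 28.9 to 38.2 in WT_CD and from 46.6 to 53.4 in ApoeKO_HFD, and Scn4b from 33.2 to 43.1 in the WT groups and from 19.8 to 33.3 in the ApoeKO groups.

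Other main repolarizing genes had 95% intervals of the log2 fold change for ApoeKO_HFD against WT_CD that included 0: −0.18 to 0.37 for Kcnk3, −0.15 to 0.51 for Kcnh2, −0.18 to 0.37 for Kcnq1, −0.16 to 0.62 for Kcnj2, −0.17 to 0.39 for Kcnj11 and −0.30 to 0.33 for Kcnd3. Over the 21 genes of at least 4 CPM the fitted log2 fold changes ran from −0.51 to 0.52, the interval bounds from −0.89 to 0.80, and the median half-width of an interval was 0.32, a factor of 1.25. For the 20 genes under 1 CPM the bounds ran from −2.66 to 2.27, so these intervals leave much larger differences possible than those of the abundant genes.

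**Figure D3:**
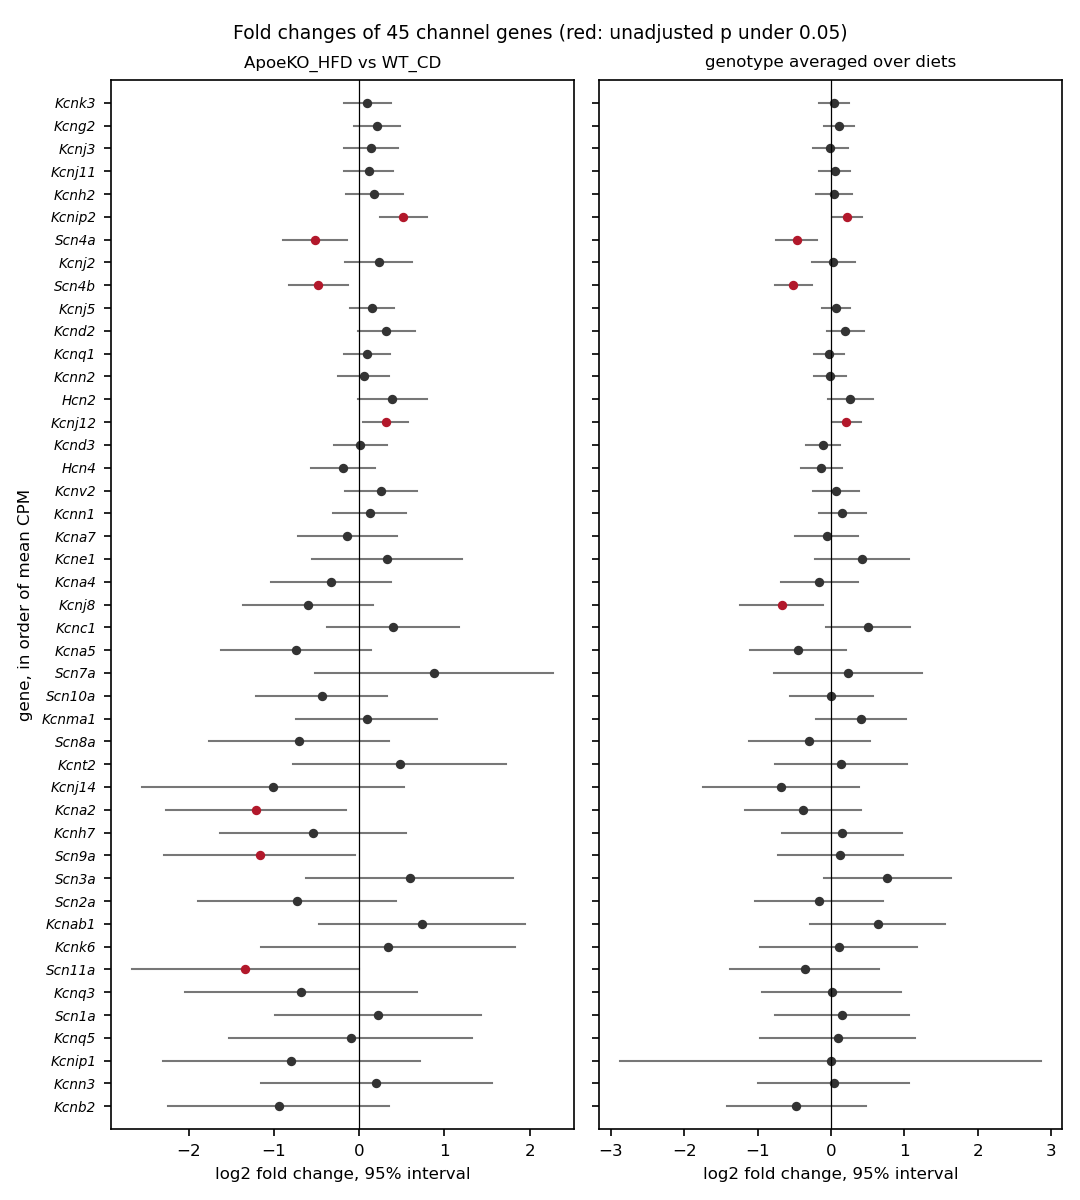
Fitted log2 fold change with its 95% interval for 45 channel genes, from the highest mean CPM at the top to the lowest, for ApoeKO_HFD against WT_CD (left) and for genotype averaged over diets (right); red marks an unadjusted p under 0.05. Intervals widen down the plot, and Kcnip2 lies above 0 and Scn4a and Scn4b below 0 in both panels.

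On chow, ApoeKO_CD against WT_CD showed 0 of 51 channel genes past an adjusted p of 0.05 in edgeR, against 0.508% of all genes (86). At an unadjusted p under 0.05 there were 9 (17.6%, against 15.9% of all genes). DESeq2 called 1 (1.96%, against 2.55% of all genes), with 9 unadjusted (17.6%, against 16.0%). Voom called 0 (against 0.408%), with 7 unadjusted (13.7%, against 13.5%). The groups did not overlap for 9 of 51 (17.6%, against 16.6% of all genes). Apoe goes against the labels in exactly these groups. Kcnd2 (ENSMUSG00000060882, chr6:21215503-21729805, plus strand, GRCm38), the pore subunit of the fast transient outward current, had scaled CPM of 13.9, 19.2 and 11.5 in WT_CD, 23.0 and 19.3 in WT_HFD, 22.1, 23.7 and 21.1 in ApoeKO_CD and 19.0, 18.5 and 18.1 in ApoeKO_HFD. WT_CD replicates 1 and 3 were the lowest of the 11 libraries and WT_CD replicate 2, at 19.2, lay between the ApoeKO_HFD and the WT_HFD libraries. The means were 14.8 ± 3.98 (SD, n = 3) in WT_CD and 22.3 ± 1.31 (n = 3) in ApoeKO_CD, without overlap. The log2 fold change was 0.58 (SE 0.16, edgeR adjusted p 0.0951), DESeq2 gave an adjusted p of 0.0364, and without WT_CD replicate 2 the edgeR value was 0.81, with an adjusted p of 0.0021, in a fit that called 10.8% of all genes and 5.88% (3) of the channel genes. Over all alternatives its adjusted p ran from 0.0021 to 0.9999.

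In the same comparison Scn4a had a log2 fold change of −0.58 (SE 0.18, edgeR adjusted p 0.142) and Scn4b of −0.44 (SE 0.16, edgeR adjusted p 0.208), the latter −0.25 (adjusted p 0.481) without ApoeKO_CD replicate 1. Kcne1 had scaled CPM of 1.17, 0.235 and 1.73 in WT_CD and 1.88, 2.62 and 2.15 in ApoeKO_CD, a log2 fold change of 1.07 (SE 0.41, edgeR adjusted p 0.217), and 0.61 (adjusted p 0.179) without WT_CD replicate 2. The value of WT_CD replicate 2 rested on 6 counts, and the ApoeKO_CD libraries had 66 to 85. Scn3a, a sodium channel of the developing brain with 4 to 30 counts per library, had 1.48 (edgeR adjusted p 0.212). Scn8a, a sodium channel of brain with 6 to 46 counts, had −1.30 (edgeR adjusted p 0.238). Without WT_CD replicate 2 it had −1.71 with an adjusted p of 0.0192 (0.0192 to 0.9999 over all alternatives), and Kcnj3 had 0.51 with an adjusted p of 0.0139.

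The high fat diet under the wild-type label, WT_HFD against WT_CD, also showed 0 of 51 channel genes past an adjusted p of 0.05 in edgeR, against 0.207% of all genes (35). At an unadjusted p under 0.05 there were 6 (11.8%, against 12.9% of all genes). DESeq2 called 0 (against 1.02% of all genes), with 7 unadjusted (13.7%, against 13.1%). Voom called 0 (against 0.266%), with 10 unadjusted (19.6%, against 12.7%). For 9 of 51 (17.6%) the libraries did not overlap, against 24.7% of all genes. These groups differed in Apoe as well as in the diet label, with 2.12 to 3.61 scaled CPM in WT_CD and 8.44 to 18.9 in WT_HFD. Kcnj3 (ENSMUSG00000026824, chr2:55435970-55598145, plus strand, GRCm38) had scaled CPM of 37.8, 55.7 and 35.8 in WT_CD, 63.3 and 53.7 in WT_HFD, 51.8, 52.8 and 52.9 in ApoeKO_CD and 48.2, 44.6 and 49.9 in ApoeKO_HFD. WT_CD replicates 1 and 3 were the lowest of all libraries, while WT_CD replicate 2 exceeded all but WT_HFD replicate 1. The log2 fold change for WT_HFD against WT_CD was 0.44 (SE 0.17, edgeR adjusted p 0.282). Without WT_CD replicate 2 it was 0.67, with an adjusted p of 0.00958 (0.00958 to 0.968 over all alternatives), in a fit that called 6.09% of all genes and 5.88% (3) of the channel genes. With WT_HFD replicate 3 put back it was 0.088. A lincRNA on the other strand overlaps 31.1% of the exon bases of Kcnj3, and with a stranded kit whose counting setting is not given in the sources used here, its share in the counts was not tested.

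Kcnd2 had a log2 fold change of 0.51 in that comparison (SE 0.17, edgeR adjusted p 0.254) and Kcnip2 of 0.33 (SE 0.15, edgeR adjusted p 0.358), each without overlap between the groups. With WT_HFD replicate 3 put back they had 0.12 and 0.092, and without WT_CD replicate 3 Kcnip2 had 0.21 (adjusted p 0.575). Without WT_CD replicate 2 the Kcnd2 value was 0.73, with an adjusted p of 0.00963 (0.00963 to 0.962 over all alternatives). The 3 members of smallest p on the lower side were low-level alpha subunits known from sensory and other neurons. They were Scn9a at −1.88, Scn8a at −1.41 and Scn11a at −1.47, with edgeR adjusted p-values of 0.250, 0.325 and 0.403 and 4 to 46 counts per library. Without WT_CD replicate 2, Scn8a had −1.84 and an adjusted p of 0.0344 (0.0344 to 0.790 over all alternatives). Scn11a had −0.77 (adjusted p 0.673) without WT_CD replicate 1. All 3 turned positive, at 1.15, 0.99 and 0.45, when the opposite-strand library was put back.

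Under the knockout label, ApoeKO_HFD against ApoeKO_CD showed 0 of 51 channel genes past an adjusted p of 0.05 in edgeR, against 0.0709% of all genes (12). In edgeR only Kcnip2 and Kcnj14 had an unadjusted p under 0.05 (3.92%, against 1.53% of all genes). DESeq2 called 0 (against 0.118% of all genes), with 3 unadjusted (5.88%, against 1.60%). Voom called 0 (against 0.136%), with 8 unadjusted (15.7%, against 5.41%). Groups without overlap were found for 7 of 51 (13.7%, against 9.03% of all genes). Here too Apoe differed along with the diet label, at 6.93 to 25.3 scaled CPM in ApoeKO_CD and 1.94 to 3.16 in ApoeKO_HFD. Kcnip2 had a log2 fold change of 0.28 (SE 0.13, edgeR adjusted p 0.9997), with every ApoeKO_HFD library above every ApoeKO_CD library. Hcn2 had scaled CPM of 14.3, 16.4 and 12 in ApoeKO_CD and 20.4, 18.4 and 15.7 in ApoeKO_HFD, overlapping at 1 library, and a log2 fold change of 0.36 (SE 0.19).

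On the lower side of that comparison stood Kcnj14, an inward rectifier of low level, with scaled CPM of 0.506, 0.676 and 0.733 in ApoeKO_CD and 0.144, 0.149 and 0.351 in ApoeKO_HFD. The ApoeKO_HFD values rested on 6, 4 and 14 counts, and WT_CD replicate 3 had 0, which allows up to 0.113 scaled CPM at 3 counts; the floor covers counting error only. Its log2 fold change was −1.53 (SE 0.71). Kcne1 had −0.74 (SE 0.40), and both had edgeR adjusted p-values of 0.9997.

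Between the genotype labels on the high fat diet, ApoeKO_HFD against WT_HFD showed 0 of 51 channel genes past an adjusted p of 0.05 in edgeR, against 0.0472% of all genes (8). An unadjusted p under 0.05 was reached by 3 (5.88%, against 2.83% of all genes). DESeq2 called 0 (against 0.165% of all genes), with 3 unadjusted (5.88%, against 2.91%). Voom called 0 (against 0.230%), with 8 unadjusted (15.7%, against 7.47%). The 3 in edgeR were Scn4b at a log2 fold change of −0.58 (SE 0.18, edgeR p 0.00466, adjusted p 0.9999), Hcn2 at 0.50 (SE 0.22) and Kcnj14 at −1.88 (SE 0.75). None of these 3 overlapped between the groups. Hcn2 had 14.2 and 11.6 scaled CPM in WT_HFD and 15.7 to 20.4 in ApoeKO_HFD. In all, 14 of 51 channel genes (27.5%) had no overlap between the groups, against 21.7% of all genes tested. Kcnab1, a beta subunit of Kcna channels, had 1.06 (SE 0.65), with an edgeR adjusted p of 0.9999.

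The interaction of diet and genotype, the diet difference under the ApoeKO label minus that under the WT label, was past an adjusted p of 0.05 for 0 of 51 channel genes in edgeR, against 0.219% of all genes (37). An unadjusted p under 0.05 was reached by 6 (11.8%, against 8.20% of all genes). DESeq2 called 0 (against 0.532% of all genes), with 6 unadjusted (11.8%, against 8.27%). Voom called 0 (against 0.425%), with 7 unadjusted (13.7%, against 12.3%). On the lower side the smallest p-values were those of 3 repolarizing genes: Kcnd2 at −0.77 (SE 0.24, edgeR adjusted p 0.382), Kcnj3 at −0.58 (SE 0.23, edgeR adjusted p 0.531) and Kcnj5 at −0.44 (SE 0.18, edgeR adjusted p 0.559). Each of these 3 had its lowest group mean in WT_CD: Kcnj5 averaged 27.8 ± 2.22 (SD, n = 3) there, 34.2 ± 3.63 (n = 2) in WT_HFD, 34.0 ± 1.44 (n = 3) in ApoeKO_CD and 30.8 ± 2.11 (n = 3) in ApoeKO_HFD. Without WT_CD replicate 2, Kcnd2 had −1.0 with an adjusted p of 0.012 (0.012 to 0.980 over all alternatives) and Kcnj3 −0.81 with 0.0231 (0.0231 to 0.9997), in a fit that called 1.70% of all genes and 3.92% (2) of the channel genes. With WT_HFD replicate 3 put back these were −0.38 and −0.23. On the higher side stood Scn8a at 2.01 (edgeR adjusted p 0.540) and Hcn2 at 0.47 (0.685), the latter 0.17 (0.856) without WT_CD replicate 1 and 0.28 (0.923) without WT_HFD replicate 2.

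Averaging the genotype difference over both diets, a comparison added after the data were seen, gave 0 of 51 past an adjusted p of 0.05 in edgeR, against 0.100% of all genes (17), and 6 at an unadjusted p under 0.05 (11.8%, against 8.14%). DESeq2 called 1 (1.96%, against 0.502% of all genes), with 6 unadjusted (11.8%, against 8.28%). Voom called 0 (against 0.242%), with 6 unadjusted (11.8%, against 10.2%). The sodium channel subunits Scn4b, at −0.51 (SE 0.12, edgeR p 0.000554, adjusted p 0.177), and Scn4a, at −0.46 (SE 0.13, edgeR p 0.00258, adjusted p 0.302), had the smallest p-values. DESeq2 gave Scn4b an adjusted p of 0.0278 (0.00906 to 0.761 over all alternatives), and a fit without the filter gave Scn4a 0.0305. Without WT_HFD replicate 1 Scn4a had −0.30 (adjusted p 0.9999). The averaged value holds only for the labels as given: for Scn4b it averages −0.44 on chow, where Apoe goes against the labels, and −0.58 on the high fat diet. The interaction, in which the chow difference enters with the opposite sign, was −0.14 for Scn4b (SE 0.24, edgeR adjusted p 0.899). Kcnip2 had 0.22 (edgeR adjusted p 0.593), Kcnj12 0.21 (0.579) and Kcnc1 0.51 (0.665), the last 0.30 (0.920) without ApoeKO_CD replicate 3. Averaging diet over both genotypes gave 0 of 51 in edgeR, against 0.00% of all genes (0). At an unadjusted p under 0.05 stood 4 (7.84%, against 6.30%). DESeq2 called 0 (against 0.0472% of all genes), with 4 unadjusted (7.84%, against 6.46%). Voom called 0 (against 0.00591%), with 6 unadjusted (11.8%, against 8.82%). Kcnip2 had 0.30 (SE 0.10, 95% interval 0.10 to 0.51, edgeR adjusted p 0.777), Scn9a −1.29, Kcna2 −0.83 and Scn11a −0.98. For the 21 genes of at least 4 CPM the interval bounds of the averaged diet difference ran from −0.35 to 0.51.

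**Figure D4:**
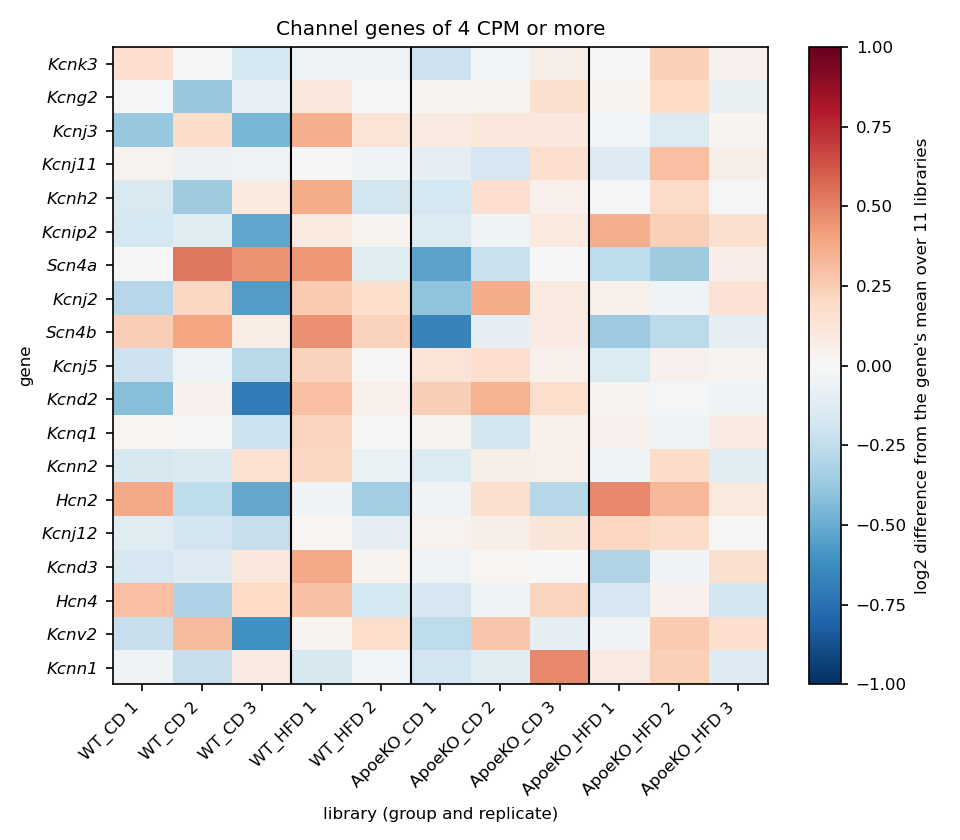
Log2 difference of each library from the mean of the gene over 11 libraries, for 19 channel genes of at least 4 CPM in order of level; columns are libraries and vertical lines separate the groups. WT_CD replicate 3 holds the lowest value of 9 of these genes, among them Kcnd2, Kcnip2, Kcnj2 and Hcn2, and of 22.5% of all genes tested.

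The map of deviations by library shows where the abundant genes varied. Of the 21 genes of at least 4 CPM, 15 had their lowest value in a WT_CD library (71.4%, against 53.2% of all genes tested) and 4 their highest (19.0%, against 48.3%). Within WT_CD the lowest values fell on replicate 3 for 9 genes (42.9%, against 22.5% of all genes tested). They fell on replicate 2 for 5 (23.8%, against 15.5%) and on replicate 1 for 1 (4.76%, against 15.3%). The WT_CD replicates did not move as a block: Kcnv2, Kcnj2, Kcnj3 and Kcnd2 were higher in replicate 2 than in replicates 1 and 3, while Hcn4 was lowest there within the group, with 12.9, 8.48 and 12.1 scaled CPM in these 3 libraries. WT_HFD replicate 1 held the highest value of 7 of the 21 (33.3%, against 7.32% of all genes tested). All genes tested include genes of every level, and no share matched for level was computed for the 21.

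Among the 20 genes under 1 CPM, WT_CD replicate 1 held the highest value of 9 (45%, against 19.6% of all tested genes of 0.3 to 1 CPM) and ApoeKO_CD replicate 1 that of 6 (30%, against 10.1%). Most of these are channels best known from neurons. Glia and neuron markers were low everywhere: 7 of 10 such genes did not pass the filter, and the summed level of the list ran from 1.5 to 3.94 scaled CPM, with 3.76 in WT_CD replicate 1 and 3.23 in ApoeKO_CD replicate 1. The glial marker S100b had 0 counts in all 3 WT_CD libraries. Their part in the levels of these channels was not tested. In bulk RNA, fewer cells of a type and less RNA per cell cannot be told apart. The vascular subunit Kcnj8 was highest in WT_CD replicate 3 at 2.44 scaled CPM and WT_HFD replicate 2 at 1.96, and lay at 0.658 to 1.45 in the other 9. The summed endothelial markers were also highest in these 2 libraries, at 169 and 180 against 68.9 to 156. Emcn, an endothelial gene of that list, was instead lowest in WT_CD replicate 3, at 1.05 scaled CPM. The summed pericyte and smooth muscle markers were highest in ApoeKO_CD replicate 1, at 78.6. Their sum stood at 50.6 in WT_CD replicate 3 and 70.9 in WT_HFD replicate 2. Myh11 of that list had 23.5 in ApoeKO_CD replicate 1 and 2.33 to 5.77 elsewhere. Pdgfrb and Notch3 were highest in WT_HFD replicate 2 (6.01 and 4.79) and next in WT_CD replicate 3 (4.14 and 4.10). Rgs5 was highest in WT_HFD replicate 2 at 35.7, but had 19.5 in WT_CD replicate 3. Cspg4 had 6.70 and 5.56 in these libraries, within its range of 5.45 to 8.41. The part of either list in the Kcnj8 level was not tested.

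The amount of atrial RNA differed between libraries. Myl7, the atrial myosin light chain, had scaled CPM of 7.65, 15.4 and 17.7 in WT_CD, 14.8 and 0.0668 in WT_HFD, 10.8, 8.75 and 4.15 in ApoeKO_CD and 4.57, 0.261 and 0.602 in ApoeKO_HFD. WT_HFD replicate 2 and ApoeKO_HFD replicates 2 and 3 were far below the rest. The summed level of the 9 atrial markers was 187, 218 and 213 scaled CPM in these 3 libraries and 321 to 378 in the other 8. Not every marker fell. Clu, the largest part of that sum, had 171, 182 and 187 in the 3 libraries and 166 to 271 in the other 8. Nr2f2 had 1.98, 1.08 and 1.38 in the 3 libraries and 1.02 to 2.63 in the other 8. The part of atrial RNA in the levels of the channel genes best known from atrium and sinus node was not tested. In those 3 libraries Kcnj3 had 53.7, 44.6 and 49.9, Kcnj5 31.6, 32.2 and 31.8, Kcnk3 166, 203 and 177, and Hcn4 9.29, 10.8 and 9.19 scaled CPM, all within the range of the other 8 libraries or, for Kcnk3 in ApoeKO_HFD replicate 2, above it.

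**Figure D5:**
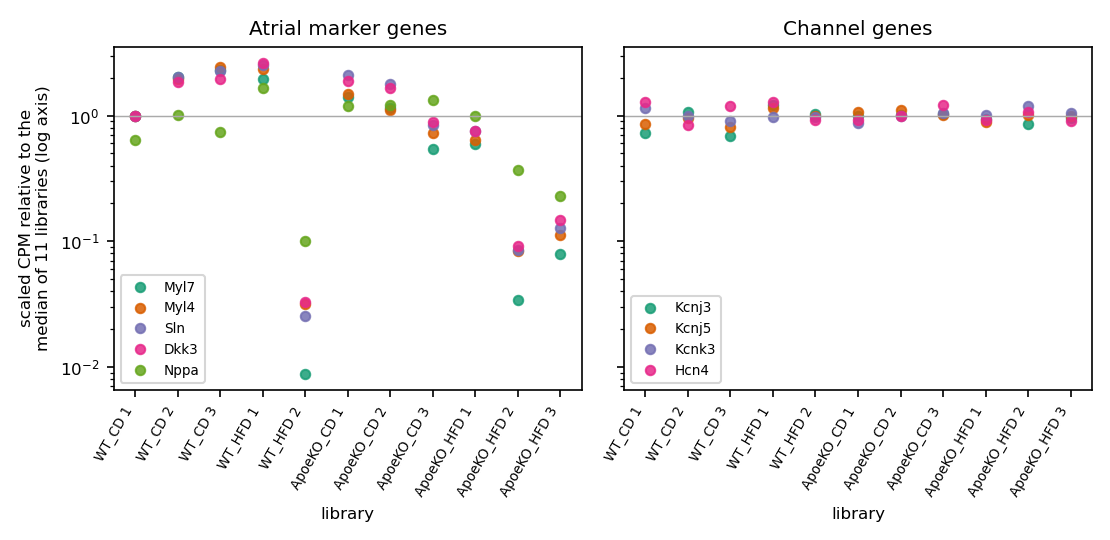
Scaled CPM of 5 of the 9 atrial marker genes (left) and 4 channel genes known from atrium or sinus node (right) in each library. Values are divided by the median of the gene over 11 libraries, on a shared log axis. The markers Clu, Nr2f2, Stard10 and Bmp10 are not drawn. Myl7 falls to 0.0668 scaled CPM in WT_HFD replicate 2. Over the 11 libraries Kcnj3 runs from 35.8 to 63.3 scaled CPM, Kcnj5 from 26.0 to 36.7, Kcnk3 from 149 to 203 and Hcn4 from 8.48 to 12.9.

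Kcnip2 was also set beside 2 clock genes, chosen after their values were seen, because the libraries differed in them. Dbp, a clock output gene, had scaled CPM of 1.45, 6.4 and 8.65 in WT_CD, 42.5 and 7.93 in WT_HFD, 4.02, 37.4 and 7.59 in ApoeKO_CD and 18.0, 7.61 and 7.64 in ApoeKO_HFD. Arntl, a core clock gene of the opposite phase, had 1.81 in WT_HFD replicate 1, 2.98 in ApoeKO_CD replicate 2 and 4.83 in ApoeKO_HFD replicate 1, against 8.04 to 11.7 in the other 8. In the 6 libraries with Dbp from 6.4 to 8.65, Kcnip2 had 38.2 and 28.9 in WT_CD replicates 2 and 3, 42.5 in WT_HFD replicate 2, 44.6 in ApoeKO_CD replicate 3 and 49.1 and 46.6 in ApoeKO_HFD replicates 2 and 3. The part of clock phase in the Kcnip2 level was not tested.

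Partners and other ion transport genes of the membrane were taken from a list of 38, all of which were tested. In edgeR 0 of 38 were called in any of the 8 comparisons, with 7 at an unadjusted p under 0.05 for ApoeKO_HFD against WT_CD (18.4%, against 14.2% of all genes), 5 for WT_HFD against WT_CD (13.2%, against 12.9%) and 4 for ApoeKO_CD against WT_CD (10.5%, against 15.9%). DESeq2 called Fxyd1 for ApoeKO_HFD against WT_CD (1 of 38, against 1.26% of all genes) and for genotype averaged over diets (1 of 38, against 0.502%). It called Fxyd1 and Trpm4 for ApoeKO_CD against WT_CD (2 of 38, against 2.55%). Voom called Fxyd1 for ApoeKO_HFD against WT_CD (1 of 38, against 0.195%). Fxyd1, the regulator of the sodium pump in heart, had 85.6, 91.9 and 92.1 scaled CPM in WT_CD, 75.3 and 76.6 in WT_HFD, 56.5, 75.9 and 65.9 in ApoeKO_CD and 67.8, 50.2 and 55.4 in ApoeKO_HFD. The WT_CD libraries were the 3 highest of the 11. Its log2 fold change for ApoeKO_HFD against WT_CD was −0.64 (SE 0.14, edgeR adjusted p 0.0817). Trpm4, a calcium-activated cation channel, had −0.69 for ApoeKO_CD against WT_CD (SE 0.18, edgeR adjusted p 0.0910). Slc12a2, a sodium, potassium and chloride cotransporter, had 0.49 for ApoeKO_HFD against WT_CD (SE 0.16, edgeR adjusted p 0.214), and Fgf13, which binds sodium channels, 0.46 for WT_HFD against WT_CD (SE 0.14, edgeR adjusted p 0.212). Abcc9, the sulfonylurea receptor that pairs with Kcnj11 in ventricle and is named here after its values were seen, had 187, 215 and 132 in WT_CD and 228, 226 and 226 in ApoeKO_HFD, a log2 fold change of 0.35 (SE 0.15, edgeR adjusted p 0.3004).

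Within 20 Mb of Apoe on chromosome 7 (Apoe is at 19696109 to 19699188 on GRCm38) lay Kcnk6, a leak channel 9.52 Mb away. It had 7 to 21 counts per library, apart from WT_CD replicate 3 with 0. Its genotype difference averaged over diets was 0.11 on the log2 scale (SE 0.51, edgeR adjusted p 0.975).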

How the data were processed

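Cardiomyocyte RNA libraries were made with a Maxwell simplyRNA extraction and the SMART-Seq Stranded kit, per the labels' protocols. The deposited files hold raw counts per gene as the authors left them, without normalization; Trimmomatic 0.39, STAR 2.7a, HTSeq 0.13.5 and the GRCm38 (mm10) build are named in the submitters' processing notes. Symbols, exons and positions came from GENCODE M21, which matched 55154 of 55335 identifiers and left 181 without a symbol.

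Counts of 11 libraries were fitted with edgeR 4.0.16 in R 4.3.3 (TMM, filterByExpr, robust quasi-likelihood F test, 1 mean per group, 16932 genes, 7 residual degrees of freedom). All p-values are two-sided and adjusted over all tested genes within each comparison. Scaled CPM are CPM on library totals multiplied by the TMM factors. Alternatives were DESeq2 1.42.0, voom of limma 3.58.1 with sample weights, RLE factors, no filter, 50 counts in 3 libraries, all 12 libraries, an atrial covariate, the replicate number as a block, a fit of only the compared groups, and each library left out. The fit was tested on simulated data.

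The genes, lists, comparisons and exclusion of WT_HFD replicate 3 were chosen with earlier results of these data known. Named are called genes, the 3 of smallest p per direction and comparison, classic cardiac current genes, genes within 20 Mb of Apoe, and neighbours of the threshold; others are named for their level. Values of several member genes are not reported or plotted here, though the fits and counts include them. Replicates differed beyond sampling noise, at 24.6 to 189.7 in chi-square over its degrees of freedom. Of 15 same-numbered pairs, 1 had deviations correlated above 0.1 (range −0.18 to 0.19), so no pairing was used.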

Additional observations from a re-analysis of the deposited data

How the results depend on the processing

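The count of 0 channel genes called in edgeR became 1 with DESeq2 and 1 without a filter on low counts for ApoeKO_HFD against WT_CD (Kcnip2, adjusted p 0.0235 and 0.0185) and for ApoeKO_CD against WT_CD (Kcnd2, adjusted p 0.0364 and 0.0125). For genotype averaged over diets it became 1 with DESeq2 (Scn4b) and 2 without a filter (Scn4b and Scn4a). Leaving out each library in turn gave 0 to 2 for ApoeKO_HFD against WT_CD, 0 to 3 for WT_HFD against WT_CD, 0 to 3 for ApoeKO_CD against WT_CD and 0 to 2 for the interaction. Every call in these ranges came without WT_CD replicate 2, where 1304 (7.79%), 1019 (6.09%), 1801 (10.8%) and 285 (1.70%) of 16732 genes were called in these 4 comparisons, against 3.92%, 5.88%, 5.88% and 3.92% of the channel genes; the cause was not tested. Without a filter 0.605%, 0.970% and 0.335% of 48951 genes were called for ApoeKO_HFD against WT_CD, ApoeKO_CD against WT_CD and genotype averaged over diets. At an unadjusted p under 0.05 stood 1.60% to 16.0% of all genes in DESeq2 and 5.41% to 13.5% in voom over the 8 comparisons. Where WT_HFD was left with 1 library, that library was assumed to vary like the other groups. Over all genes the counts of calls depended strongly on the setting: 0 to 1304 against 26 reported for ApoeKO_HFD against WT_CD, 1 to 1019 against 35 for WT_HFD against WT_CD, 1 to 26 against 12 for ApoeKO_HFD against ApoeKO_CD, 3 to 1801 against 86 for ApoeKO_CD against WT_CD, 1 to 49 against 8 for ApoeKO_HFD against WT_HFD, 8 to 285 against 37 for the interaction, 0 to 273 against 17 for genotype averaged over diets and 0 to 19 against 0 for diet averaged over genotypes. The number of genes kept was 51, 75 with all 12 libraries in the mean, 38 at a threshold of 0.5 CPM, and 82 with nuclear counts as the denominator.

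With all 12 libraries in the fit the sign reversed for Scn9a (1.15), Scn8a (0.99), Scn11a (0.45) in WT_HFD against WT_CD, Kcnab1 (−0.47) in ApoeKO_HFD against WT_HFD, Scn8a (−0.38) and Kcnj5 (0.013) in the interaction, and Kcnj2 (−0.029) and Scn9a (0.22) for the averaged diet difference. Of the other values of named genes under an alternative, 904 kept sign and side of the threshold and 16 gained a call.

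With the atrial covariate in the fit, 0 channel genes were called in every comparison. Over all genes it gave 1 call for ApoeKO_HFD against WT_CD in place of 26. With the replicate number as a block, 0 channel genes were called in every comparison. Same-numbered libraries share only a number. Over all genes the block gave 14 calls for ApoeKO_HFD against WT_CD in place of 26, 19 for WT_HFD against WT_CD in place of 35, and 61 for ApoeKO_CD against WT_CD in place of 86. Depth limits the 20 genes under 1 CPM, which had 0 to 65 counts per library.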
